A study of Mus musculus with 6 samples.

Results

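The genes described here are 50 genes of mitosis and of the transition from G2 into mitosis, taken as a listed set of symbols and matched to the identifiers of the deposited expression tables through GENCODE M21. All 50 were found among the 56748 genes of the tables and all 50 passed the filter for testing (at least 1 FPKM in at least 3 of the 6 samples). 1 member, Cenpi, passed it only through the treated samples. FPKM, fragments per kilobase of transcript with a scaling meant for library depth, is a level per length. The samples were 4T1 cells, a mouse mammary carcinoma line with a wild-type genotype label, in 3 control and 3 treated samples. Treated cells were grown for 24 h, were given Au/MoS2/Bi2S3 particles at 125 µg/mL overnight, were exposed to near-infrared light for 8 min and were washed after 24 h more. Both groups carry a 48 h label and 1 shared batch label. What else the control cells received is not stated, and cells given particles alone or light alone were not analysed here. The series text says that RNA was pooled from cells of 3 individuals, and nothing says that the 3 samples of a group were separate cultures, so the spread behind the p-values may be technical only.

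Entry into mitosis is driven by the kinase CDK1 bound to cyclin A or cyclin B. Polo-like and Aurora kinases then build the spindle, condensin compacts the chromosomes, and kinesin motors move chromosomes and microtubules. The spindle checkpoint holds the cell in metaphase until every kinetochore is attached, by holding back CDC20, the activator of the anaphase-promoting complex (APC/C), a ubiquitin ligase that marks cyclin B and securin for destruction. Most of these genes are transcribed late in the cell cycle from promoters that carry CCAAT boxes, bound by NF-Y, and a cell cycle genes homology region (CHR), bound by the MuvB complex with B-MYB and FOXM1, or with E2F4 and p130 as the repressor DREAM. Their transcripts are widely used as a measure of the dividing fraction of tumour cells. In bulk RNA, fewer cells in G2 and mitosis and less of a transcript per cell cannot be told apart.

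Reads at genes, worked back from the FPKM, numbered between 32.6 and 38.1 M per sample (M, 1e6), and the fewest reads of a member in any sample were 42, for Ttk in control 3. The depth by which the FPKM were divided, worked back in the same way, was 23.4 to 31.7 M in controls and 44.2 to 44.9 M in treated samples. Relative to the reads at genes it was 0.719 to 0.839 in controls and 1.32 to 1.33 in treated samples. The scaling thus did not follow those reads. The deposited FPKM were not scaled to a common total, since the columns summed to between 450409 and 532583 in controls and between 235757 and 241953 in treated samples. The 100 most abundant genes held between 33.0% and 36.1% of the reads in controls and between 19.0% and 19.4% in treated samples. Reads of mitochondrial genes were between 0.0421% and 0.854% in controls and between 1.29% and 1.40% in treated samples. Of the 14 epithelial markers, 9 were under 1 FPKM in every sample (among them Cdh1, Krt5 and Krt14), while the keratins Krt8, Krt18 and Krt19 were abundant. The epithelial list summed to between 1539 and 2270 FPKM in controls and between 744 and 779 in treated samples. Of 12 leukocyte markers 11 were under 1 FPKM everywhere and 5 were at 0 in every sample, including Adgre1, with a summed level of 77.0 to 444 FPKM in controls and 242 to 260 in treated samples, nearly all of it Cd68. Of 9 fibroblast markers 5 were under 1 FPKM everywhere and Postn was at 0, and the list summed to between 204 and 1168 FPKM in controls and between 51.9 and 55.1 in treated samples. Of 7 endothelial markers 6 were under 1 FPKM everywhere, and the list summed to 0.762 to 1.2 FPKM in controls and 1.30 to 1.88 in treated samples. The part of these differences in the results that follow was not tested.

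Mitotic genes were called in both directions. By limma, 12 of the 50 rose in treated cells, 13 fell and 25 were not called at an adjusted p under 0.05. Among all 11118 genes tested, 56.1% were called, 27.9% as higher and 28.3% as lower, so the share of mitotic genes called was no larger than the share of all genes. Cdc20, the activator of the APC/C, had the largest fall, to a level 3.47-fold lower, and Cenpa, the histone variant that marks centromeres, fell 2.80-fold. Mki67, the surface protein of mitotic chromosomes that is used as a proliferation marker, rose 3.32-fold. The median log2 fold change, taken throughout as treated over control on log2(FPKM + 1), a scale that understates changes of low genes, was 0.11 over the members and -0.015 over all genes tested. Its sign over the members did not hold under every alternative: it was -0.081 with GC and length trends removed, -0.043 with a minimum of 5 FPKM and -0.076 without control 3. For 17 members the 3 treated samples were all above the 3 controls, for 15 they were all below, and for 18 the groups overlapped. Among all genes tested 67.7% had groups that did not overlap, 33.6% with treated samples above and 34.1% with treated samples below.

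**Figure D1:**
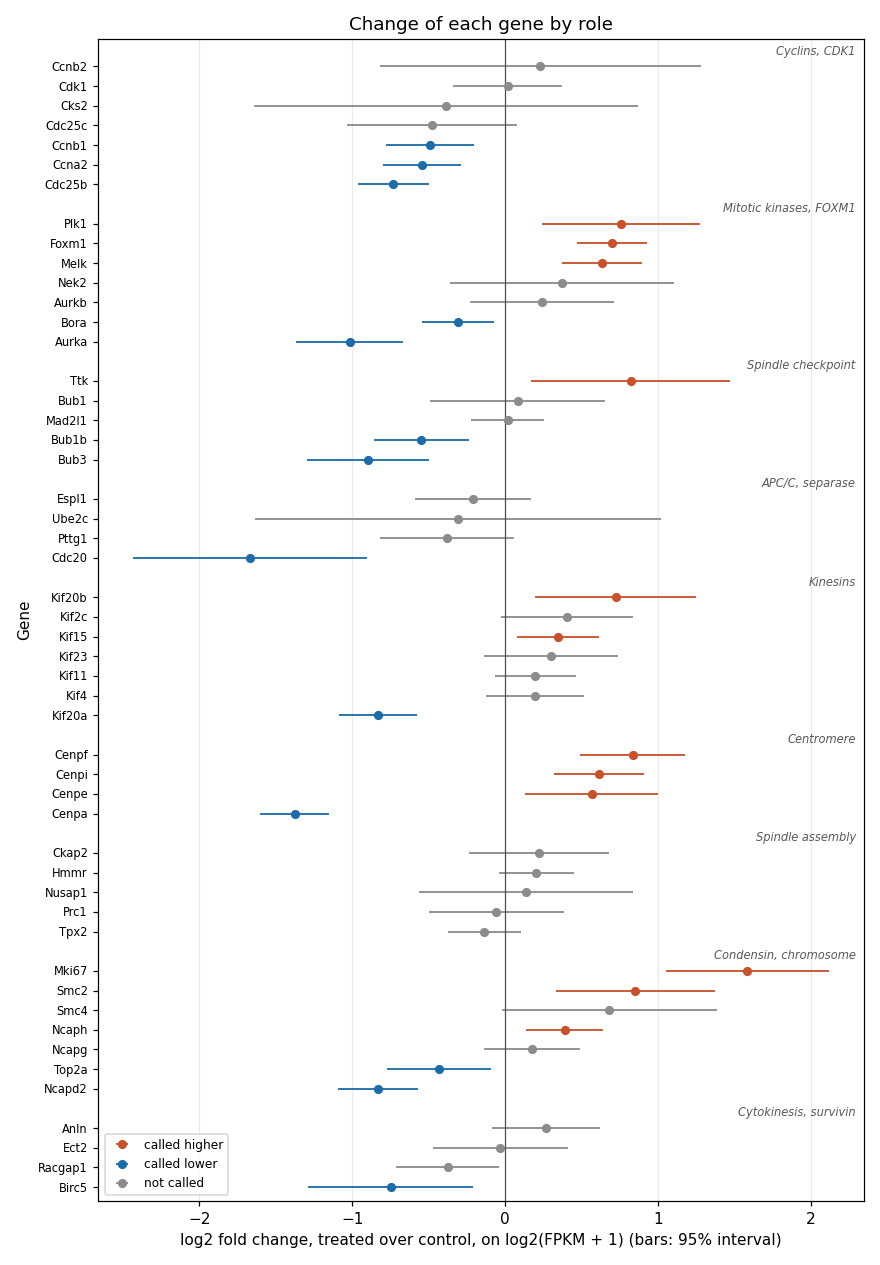
Log2 fold change of each of the 50 genes (treated over control, on log2(FPKM + 1)) with its 95% interval, grouped by role; red genes were called higher, blue genes lower and grey genes not called. On the deposited scale Mki67 lies farthest to the right at 1.59 and Cdc20 farthest to the left at -1.67, and most roles hold genes on both sides of 0; with the same FPKM total in every sample all values shift up by about the 0.92 of the median gene.

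Direction was set in part by the scaling between libraries. When each sample was given the same FPKM total, the median of all genes tested moved to 0.92 and that of the members to 1.09, and 38 members were called higher and 1, Cenpa, lower. On that scale 63.8% of all genes tested were called higher and 6.6% lower. Measured from the 0.92 of the median gene, all 12 members that rose lay above it and all 13 that fell lay below it. That follows nearly by construction, since all genes of a sample were divided by the same factor, and it is no separate support for the calls. Of the 13, only Cdc20 (-0.69), Cenpa (-0.47) and Aurka (-0.041) were below 0 before that shift was taken off. Ccna2, Ccnb1, Bora, Bub1b and Top2a, also among the 13, were called higher on that scale. The members took a larger share of the recovered reads in treated cells, at 0.344%, 0.360% and 0.282% across controls 1 to 3 and 0.448%, 0.448% and 0.472% across treated samples 1 to 3. Their deposited FPKM summed to 973, 1077 and 933 across controls 1 to 3 and to 730.2, 750.5 and 765 across treated samples 1 to 3. The groups did not overlap on either scale, and the order of the groups was opposite on the 2 scales. The share of reads does not use the depth by which the FPKM were divided, and the part of that depth in the reversal was not tested.

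Which way a mitotic gene moved went with how abundant it was. Of the 27 members with a mean of 10 FPKM or more over the 6 samples, 12 fell (44.4%) and 3 rose (11.1%). Among the 4218 genes of all those tested at that level, 47.3% fell and 11.0% rose. Of the 23 members under 10 FPKM, 9 rose (39.1%) and only Bora fell (4.35%), against 38.2% and 16.6% of 6900 genes. Cenpi, among the 9, entered the test only through the treated samples. Among all 11118 genes tested, 694 entered only through the treated samples and 200 only through the controls. Such genes could enter only by being higher in that group, and the part of the filter in these shares was not tested. The Spearman correlation of the log2 fold change with the mean level was -0.57 across the 50 members and -0.44 across 10993 genes. These points share the same 6 libraries and the level enters both axes, so the correlations are descriptions. Members that rose had a median exon length of 5718 bp and a median GC content of 43.1%, and members that fell 4275 bp and 48.4%. With trends on GC content, length and level removed, Cdc20 was at -0.81 (adjusted p = 0.0647) and no longer called, while Mki67 and Cenpa kept their calls.

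**Figure D2:**
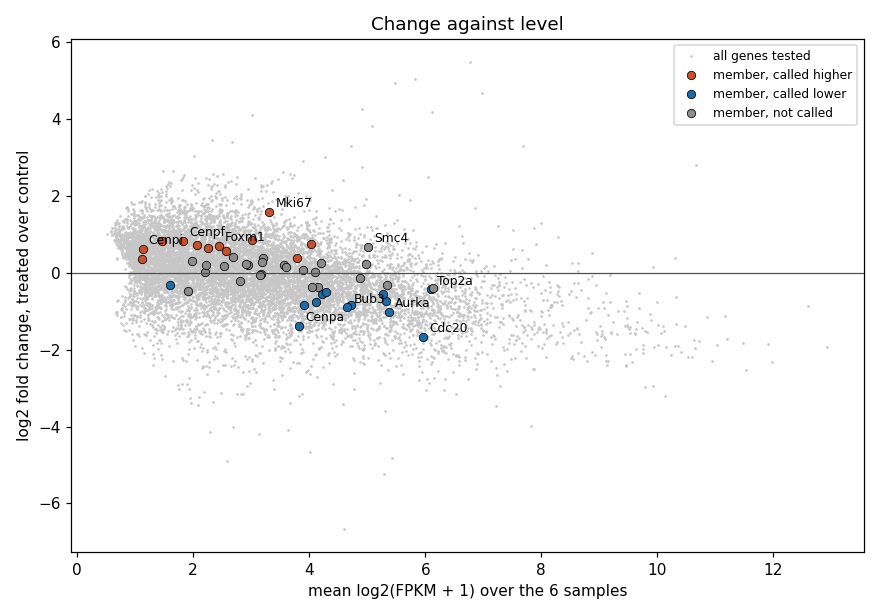
Log2 fold change (treated over control, deposited scale) against the mean log2(FPKM + 1) of the 6 samples for all 11118 genes tested (small grey points) and the 50 mitotic genes (large points, coloured by call). The red points lie mostly to the left and the blue points to the right, within the downward slope of the grey cloud, with Mki67 above and Cdc20 and Cenpa near its lower side.

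Promoter sequences were looked up in a RefSeq table for GRCm38.p6 that gives 250 bases before to 50 bases after each start, and 42 of the 50 members were matched. The letters CCAAT, on either strand, were present in 76.2% of the members' promoters and in 41.1% of all 27025 genes of the table. A CHR, searched as TTTGAA or TTCGAA on both strands (TTCGAA reads the same on either), was present in 73.8% and 21.7%, and both motifs together in 64.3% and 9.65%. Letters of an E2F site, searched on both strands as TTCCCGC, as the variant TTGGCGC, as the variant TTCGCGC and as the variant TTGCCGC, were found in 21.4% of the members and 10.9% of all genes. None of these motifs contains another, but matches of E2F letters and of CCAAT can share bases, as they do in Ccnb1 and Ect2. The motifs were not limited to members that moved 1 way: CCAAT and CHR together were present in 5 of 11 matched members that rose, 8 of 10 that fell and 14 of 21 that were not called. Of the rising genes that stayed called under every alternative in which they were tested, Melk held neither motif and Foxm1 was not matched. The windows of the members with the largest falls, Cdc20 and Cenpa, and of the other rising genes that stayed called in this way, Cenpf and Mki67, are shown because all hold both motifs although their transcripts moved in opposite directions. Each is written 5′ to 3′ along the gene, from 150 bases before the start to 30 bases from it, with CCAAT and CHR letters of either strand in capitals. The positions in GRCm38.p6 are chr4:118437314-118437493 (minus strand) for Cdc20, chr5:30666736-30666915 (plus strand) for Cenpa, chr1:189688057-189688236 (minus strand) for Cenpf and chr7:135716350-135716529 (minus strand) for Mki67.
Cdc20: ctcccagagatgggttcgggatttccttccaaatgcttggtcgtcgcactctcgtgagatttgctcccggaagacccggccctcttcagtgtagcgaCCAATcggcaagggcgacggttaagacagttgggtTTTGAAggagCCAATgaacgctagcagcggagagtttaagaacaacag
Cenpa: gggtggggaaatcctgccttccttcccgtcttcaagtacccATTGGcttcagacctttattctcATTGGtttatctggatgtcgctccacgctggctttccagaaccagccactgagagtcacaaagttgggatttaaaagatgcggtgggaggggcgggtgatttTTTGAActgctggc
Cenpf: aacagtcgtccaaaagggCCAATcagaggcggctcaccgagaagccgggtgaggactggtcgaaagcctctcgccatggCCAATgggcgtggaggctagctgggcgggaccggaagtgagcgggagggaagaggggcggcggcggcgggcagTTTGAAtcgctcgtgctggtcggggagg
Mki67: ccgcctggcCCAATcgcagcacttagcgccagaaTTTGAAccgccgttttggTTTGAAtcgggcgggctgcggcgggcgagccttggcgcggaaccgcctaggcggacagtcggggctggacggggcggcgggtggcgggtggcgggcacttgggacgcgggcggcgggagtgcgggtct
In all 4 windows a match is a description of letters, and binding was not measured.

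On the deposited scale the cyclins and the regulators of CDK1 fell or were not called. Of 7 genes 3 fell and 0 rose (0 at an unadjusted p under 0.05), with a median log2 fold change of -0.48. With the same FPKM total in every sample 3 were called, all higher, with a median of 0.48 beside the 0.92 of all genes. The 3 were Cdk1 and 2 genes that fell on the deposited scale, Ccna2 (0.42, adjusted p = 0.0359) and Ccnb1 (0.48, adjusted p = 0.00569). The counts of this and every later role stand beside 27.9% of all genes called higher and 28.3% called lower. With the same FPKM total those shares were 63.8% and 6.6%. Ccnb1, which encodes cyclin B1, the main mitotic partner of CDK1, was at 21.0, 20.6 and 25.1 FPKM across controls 1 to 3 and 14.6, 16.0 and 15.9 FPKM across treated samples 1 to 3. Every treated sample was below every control. It fell from 22.3 ± 2.51 to 15.5 ± 0.741 FPKM (SD, n = 3), with log2 fold change -0.49 ± 0.12 (SE), adjusted p = 0.0139. Ccna2, which encodes cyclin A2 of S phase and G2, was at 22.5, 21.6 and 20.4 FPKM across controls 1 to 3 and 13.9, 13.9 and 15.6 FPKM across treated samples 1 to 3, again with no overlap. It fell from 21.5 ± 1.02 to 14.5 ± 1.01 FPKM (SD, n = 3), with log2 fold change -0.54 ± 0.10 (SE), adjusted p = 0.00601. Cdc25b, a phosphatase that activates CDK1, was at 51.9, 49.9 and 50.6 FPKM across controls 1 to 3 and 30.6, 30.5 and 29.6 FPKM across treated samples 1 to 3, and both groups were tight. It fell from 50.8 ± 1.05 to 30.2 ± 0.551 FPKM (SD, n = 3), with log2 fold change -0.73 ± 0.096 (SE), adjusted p = 0.00149. With quantile normalization Ccna2 (-0.24, adjusted p = 0.114), Ccnb1 (-0.16, adjusted p = 0.213) and Cdc25b (-0.12, adjusted p = 0.356) were not called, nor was Cdc25b with GC, length and level trends removed (-0.25, adjusted p = 0.0936). Ccnb1 was also not called without treated 1, treated 2 or treated 3 (-0.45, -0.51 and -0.51, with adjusted p = 0.0761, 0.0592 and 0.0608). Without a treated sample 1542 to 1597 of all genes were called higher and 2011 to 2136 lower. With all 6 samples these counts were 3099 and 3141.

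The kinase itself was not called. Cdk1 was at 15.3, 19.5 and 14.0 FPKM across controls 1 to 3 and 17.0, 15.0 and 16.9 FPKM across treated samples 1 to 3, and the groups overlapped (log2 fold change 0.017, 95% interval -0.34 to 0.38, adjusted p = 0.926). Ccnb2, the second B-type cyclin, was at 33.6, 48.6 and 13.5 FPKM across controls 1 to 3 and 32.3, 34.5 and 32.9 FPKM across treated samples 1 to 3, with the treated samples inside the range of the controls (adjusted p = 0.672). Cks2, a small CDK-binding subunit, was at 87.1, 162 and 35.0 FPKM across controls 1 to 3 and 56.1, 64.5 and 60.9 FPKM across treated samples 1 to 3. Its controls spread widely around the treated samples, and the interval was wide (log2 fold change -0.39, 95% interval -1.64 to 0.87, adjusted p = 0.551). It was called lower without control 3 (-0.96, adjusted p = 0.0208). Cdc25c, the CDK1-activating phosphatase of mitotic entry, ranged from 2.12 to 4.75 FPKM in controls and from 2.01 to 2.36 in treated samples, and it was called lower without control 2 (-0.73, adjusted p = 0.00407), whose value lay among the treated ones. Cdc25c was also called lower with quantile normalization (-0.71, adjusted p = 0.0379) and with GC, length and level trends removed (-0.89, adjusted p = 0.0276).

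Among the mitotic kinases and their regulators, Aurka and its partner Bora fell on the deposited scale while Foxm1, Melk and Plk1 rose. Of 7 genes 3 rose and 2 fell, with a median of 0.38, and with the same FPKM total 6 were called, all higher (median 1.37). Bora was among the 6 (0.46, adjusted p = 0.0227), although it fell on the deposited scale. Aurka, which encodes the kinase that matures centrosomes, was at 54.7, 51.3 and 69.4 FPKM across controls 1 to 3 and 27.4, 29.8 and 27.2 FPKM across treated samples 1 to 3. No treated sample reached 51.3 FPKM, the lowest control. It fell 2.08-fold, from 58.4 ± 9.61 to 28.1 ± 1.41 FPKM (SD, n = 3), with log2 fold change -1.02 ± 0.14 (SE), adjusted p = 0.00196. Bora, the cofactor through which Aurora A activates PLK1, was at 2.52, 2.16 and 2.43 FPKM across controls 1 to 3 and 1.64, 1.65 and 1.89 FPKM across treated samples 1 to 3, with no overlap and a small difference (log2 fold change -0.31 ± 0.097 (SE), adjusted p = 0.0345).

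Plk1, the polo-like kinase of mitotic entry and spindle assembly, was at 10.7, 16.3 and 8.91 FPKM across controls 1 to 3 and 21.4, 20.4 and 19.4 FPKM across treated samples 1 to 3. All treated samples were above the highest control, control 2. It rose from 12.0 ± 3.87 to 20.4 ± 0.988 FPKM (SD, n = 3), with log2 fold change 0.76 ± 0.21 (SE), adjusted p = 0.024. Foxm1, the transcription factor that activates G2/M promoters, was at 3.15, 3.21 and 3.41 FPKM across controls 1 to 3 and 6.28, 5.72 and 5.74 FPKM across treated samples 1 to 3, and each group was tight. It rose 1.82-fold, from 3.26 ± 0.138 to 5.91 ± 0.316 FPKM (SD, n = 3), with log2 fold change 0.70 ± 0.095 (SE), adjusted p = 0.00169. Melk, a kinase abundant in dividing tumour cells, was at 3.12, 2.80 and 2.54 FPKM across controls 1 to 3 and 4.73, 4.74 and 5.31 FPKM across treated samples 1 to 3, with no overlap. It rose from 2.82 ± 0.289 to 4.93 ± 0.332 FPKM (SD, n = 3), with log2 fold change 0.63 ± 0.11 (SE), adjusted p = 0.00362. Aurkb, the kinase of the chromosomal passenger complex, was at 15.0, 12.7 and 21.5 FPKM across controls 1 to 3 and 18.9, 19.8 and 18.7 FPKM across treated samples 1 to 3, where control 3 was above and the other controls below the treated samples (log2 fold change 0.24, 95% interval -0.23 to 0.71, adjusted p = 0.322). Nek2, which splits centrosomes, had the same arrangement, with control 3 highest of all samples at 11.9 FPKM and the others at 4.57 to 10.1 FPKM. Without control 3 Aurkb and Nek2 were called higher, at 0.45, adjusted p = 0.00936 and 0.71, adjusted p = 0.00624. Aurkb was also called higher with quantile normalization. Plk1 was not called without control 1, treated 1, treated 2 or treated 3 (0.71, 0.73, 0.76 and 0.79, with adjusted p = 0.081, 0.0862, 0.0772 and 0.0694), and Bora was not called without control 1, treated 1, treated 2 or treated 3 (-0.28, -0.29, -0.29 and -0.35, with adjusted p = 0.0892, 0.157, 0.161 and 0.0946). Plk1 was also not called with no filter on low values (0.76, adjusted p = 0.054), nor Bora with no filter on low values (-0.31, adjusted p = 0.0969) and with weights per group (-0.31, adjusted p = 0.11).

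**Figure D3:**
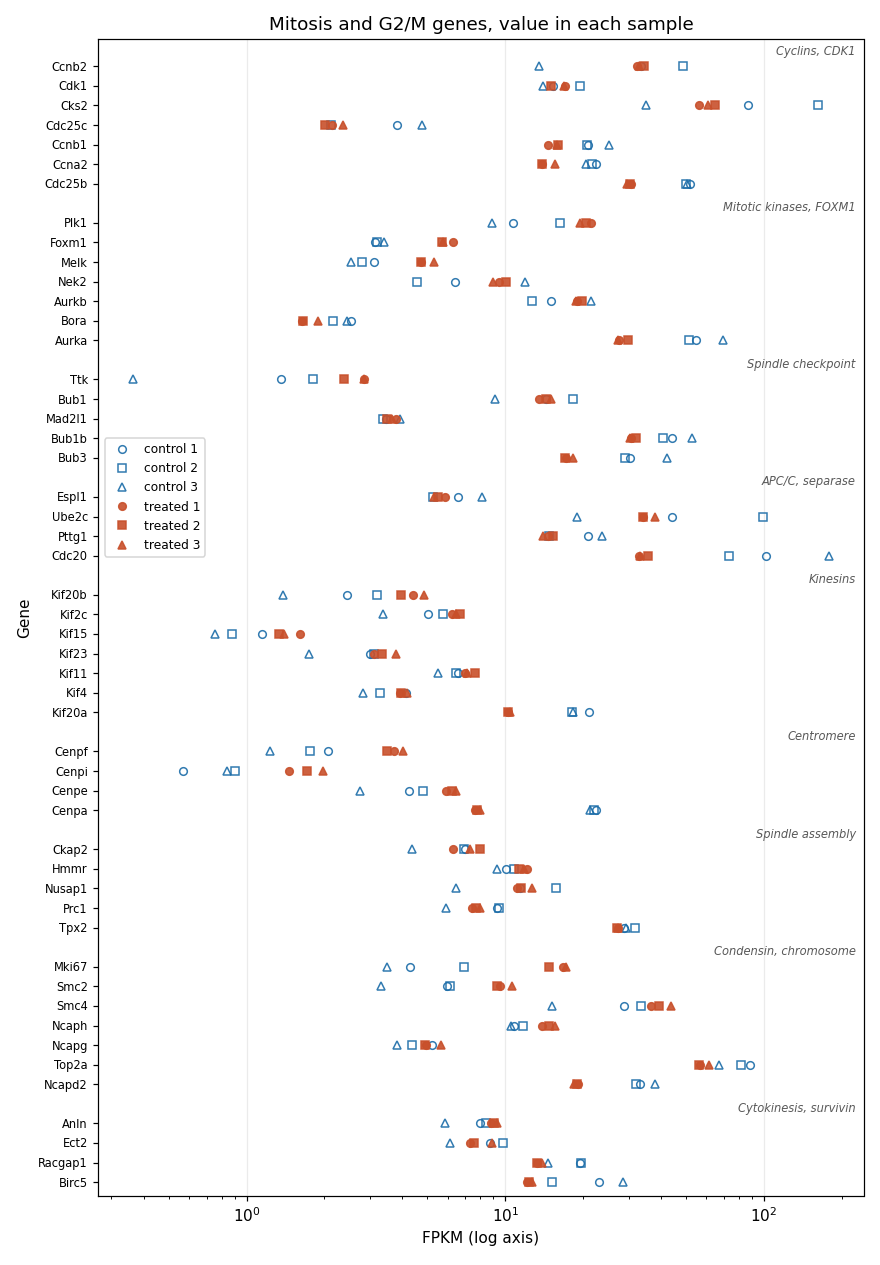
FPKM (log axis) of each gene in each of the 6 samples, by role; open blue symbols are controls 1 to 3 and filled red symbols are treated 1 to 3, with 1 symbol shape per replicate number. The treated symbols sit close together for nearly every gene, while the control symbols spread, as for Cdc20 (73.0 to 178 FPKM), Ube2c (19.0 to 99.4 FPKM) and Cks2 (35.0 to 162 FPKM).

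The spindle checkpoint genes split. Of 5 genes Ttk rose, Bub1b and Bub3 fell and the other 2 were not called, with a median of 0.017. With the same FPKM total 4 were called, all higher (median 0.93). Bub1b was among the 4 (0.43, adjusted p = 0.00882), although it fell on the deposited scale. Bub3, a WD-repeat protein that brings checkpoint kinases to kinetochores, was at 30.4, 29.0 and 42.4 FPKM across controls 1 to 3 and 17.2, 17.0 and 18.3 FPKM across treated samples 1 to 3. Every treated sample was below the lowest control by more than 10 FPKM. It fell 1.94-fold, from 33.9 ± 7.36 to 17.5 ± 0.689 FPKM (SD, n = 3), with log2 fold change -0.90 ± 0.16 (SE), adjusted p = 0.00493. Bub1b, which encodes BUBR1 of the complex that inhibits CDC20, was at 44.3, 40.8 and 52.8 FPKM across controls 1 to 3 and 30.5, 31.9 and 30.3 FPKM across treated samples 1 to 3, with no overlap. It fell from 46.0 ± 6.14 to 30.9 ± 0.845 FPKM (SD, n = 3), with log2 fold change -0.55 ± 0.13 (SE), adjusted p = 0.0123. Ttk, which encodes MPS1, the kinase that starts checkpoint signalling, was at 1.36, 1.81 and 0.364 FPKM across controls 1 to 3 and 2.85, 2.38 and 2.84 FPKM across treated samples 1 to 3, with control 3 far below the others. It rose from 1.18 ± 0.739 to 2.69 ± 0.270 FPKM (SD, n = 3), with log2 fold change 0.82 ± 0.27 (SE), adjusted p = 0.0396. Bub1, the kinase that docks the other checkpoint proteins, was at 14.4, 18.3 and 9.16 FPKM across controls 1 to 3 and 13.6, 14.4 and 15.0 FPKM across treated samples 1 to 3, the treated samples lying inside the control range (log2 fold change 0.083, 95% interval -0.49 to 0.66, adjusted p = 0.783). Mad2l1, which encodes the checkpoint protein MAD2, ranged from 3.38 to 3.93 FPKM in controls and from 3.48 to 3.79 in treated samples (log2 fold change 0.017, 95% interval -0.22 to 0.26, adjusted p = 0.895). Bub1b was not called without treated 1, treated 2 or treated 3 (-0.54, -0.57 and -0.54, with adjusted p = 0.0639, 0.0546 and 0.0656), and it was also not called with quantile normalization (0.061, adjusted p = 0.62) and with GC, length and level trends removed (-0.15, adjusted p = 0.25). Ttk was not called without control 1, treated 1, treated 2 or treated 3 (0.91, 0.79, 0.88 and 0.79, with adjusted p = 0.0721, 0.12, 0.0871 and 0.119), nor with a pseudocount of 0.1 FPKM (1.35, adjusted p = 0.0694), with no filter on low values (0.82, adjusted p = 0.1), with quantile normalization (0.49, adjusted p = 0.0742), with GC and length trends removed (0.60, adjusted p = 0.0786) and with GC, length and level trends removed (0.30, adjusted p = 0.327).

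The genes of the APC/C and of separase were led by Cdc20. Of 4 genes only Cdc20 was called, as lower, and 0 were called higher (0 at an unadjusted p under 0.05), with a median of -0.34. With the same FPKM total 2 were called, both higher (median 0.64). Cdc20 was at 102, 73.0 and 178 FPKM across controls 1 to 3 and 32.8, 35.6 and 33.2 FPKM across treated samples 1 to 3. The controls themselves differed by more than 2-fold, and the lowest of them was still more than 2-fold above the highest treated sample. It fell from 118 ± 54.4 to 33.9 ± 1.53 FPKM (SD, n = 3), with log2 fold change -1.67 ± 0.32 (SE), adjusted p = 0.00555, and it kept its call without any single sample. Ube2c, the E2 enzyme that starts ubiquitin chains on APC/C targets, was at 44.2, 99.4 and 19.0 FPKM across controls 1 to 3 and 34.0, 34.2 and 37.9 FPKM across treated samples 1 to 3. Here control 2 was the highest and control 3 the lowest of all samples, and the interval was wide (log2 fold change -0.31, 95% interval -1.64 to 1.02, adjusted p = 0.655). Pttg1, which encodes securin, the inhibitor of separase, was at 20.8, 14.7 and 23.6 FPKM across controls 1 to 3 and 14.6, 15.3 and 14.1 FPKM across treated samples 1 to 3, with control 2 among the treated samples (adjusted p = 0.12). Espl1, which encodes separase, ranged from 5.25 to 8.12 FPKM in controls and from 5.30 to 5.86 in treated samples. Without control 2 Pttg1 and Espl1 were called lower, at -0.57, adjusted p = 0.00594 and -0.35, adjusted p = 0.0495.

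Among 7 kinesin genes 2 rose, 1 fell and 4 were not called, beside the 27.9% of all genes called higher and the 28.3% called lower. The median was 0.30, and with the same FPKM total 6 were called, all higher (median 1.26). With quantile normalization only Kif20a was called, as lower, at a median of 0.055 beside 0.029 for all genes, of which 27.2% were called higher and 24.5% lower. Kif20a, a motor of the central spindle needed for cytokinesis, was at 21.0, 18.2 and 18.2 FPKM across controls 1 to 3 and 10.2, 10.2 and 10.4 FPKM across treated samples 1 to 3, and all treated samples were below all controls. It fell 1.86-fold, from 19.1 ± 1.63 to 10.3 ± 0.0991 FPKM (SD, n = 3), with log2 fold change -0.83 ± 0.10 (SE), adjusted p = 0.00126. In GENCODE M21 29.3% of its exon bases overlap Cdc23 on the opposite strand, with no strand setting stated, and Cdc23 was at 3.69 to 4.03 FPKM in all 6 samples. Ccna2, Cdc20, Cdc25b, Cdc25c, Kif4, Ncapg, Nek2, Nusap1, Plk1, Prc1 and Ube2c also share exon bases with a gene on the opposite strand, and reads in those shared bases cannot be assigned to 1 gene of the pair. Kif20b, a related motor of the midbody, was at 2.45, 3.20 and 1.39 FPKM across controls 1 to 3 and 4.39, 3.95 and 4.86 FPKM across treated samples 1 to 3, with control 3 lowest and no overlap. It rose from 2.35 ± 0.914 to 4.40 ± 0.454 FPKM (SD, n = 3), with log2 fold change 0.73 ± 0.22 (SE), adjusted p = 0.0298. Kif15, a spindle motor that works beside KIF11, was at 1.15, 0.876 and 0.751 FPKM across controls 1 to 3 and 1.61, 1.33 and 1.40 FPKM across treated samples 1 to 3, low in all samples and without overlap (log2 fold change 0.35 ± 0.11 (SE), adjusted p = 0.0361). Of the motors that were not called, Kif11, which keeps spindle poles apart, ranged from 5.51 to 6.59 FPKM in controls and 6.96 to 7.63 in treated samples without overlap (adjusted p = 0.164). Kif2c, a microtubule depolymerase of the centromere, ranged from 3.35 to 5.77 and from 6.22 to 6.67 FPKM, also without overlap (adjusted p = 0.0955), and was called higher without control 2 (0.54, adjusted p = 0.0298). Kif23, the motor of centralspindlin, and Kif4, a chromosome-bound motor, overlapped between groups at 1.74 to 3.79 FPKM and 2.82 to 4.18 FPKM over the 6 samples. Kif20b was not called without control 1, treated 1, treated 2 or treated 3 (0.77, 0.72, 0.79 and 0.66, with adjusted p = 0.0699, 0.0914, 0.0685 and 0.106), and Kif15 was not called without control 2, treated 1, treated 2 or treated 3 (0.33, 0.30, 0.38 and 0.36, with adjusted p = 0.062, 0.177, 0.114 and 0.134). Kif20b was also not called with no filter on low values (0.73, adjusted p = 0.0732), with quantile normalization (0.50, adjusted p = 0.0549), with GC and length trends removed (0.37, adjusted p = 0.0828) and with GC, length and level trends removed (0.30, adjusted p = 0.152). Kif15 was also not called with a pseudocount of 0.1 FPKM (0.61, adjusted p = 0.0504), with no filter on low values (0.35, adjusted p = 0.131), with quantile normalization (-0.015, adjusted p = 0.914), with GC and length trends removed (0.017, adjusted p = 0.897), with weights per group (0.35, adjusted p = 0.0988) and with GC, length and level trends removed (-0.24, adjusted p = 0.101), and 2 of these values are below 0.

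All 4 centromere genes were called, beside 56.1% of all genes tested, and Cenpa moved against the other 3. Of those 3, Cenpi entered the test only through the treated samples. The median was 0.59, and with the same FPKM total 3 were again called higher and 1 lower (median 1.61). Cenpa was at 22.4, 22.0 and 21.3 FPKM across controls 1 to 3 and 7.66, 7.76 and 8.00 FPKM across treated samples 1 to 3. The samples of each group nearly coincided, far from the other group. It fell 2.80-fold, from 21.9 ± 0.584 to 7.81 ± 0.176 FPKM (SD, n = 3), with log2 fold change -1.38 ± 0.092 (SE), adjusted p = 0.000253, and was the only falling member called under all 15 alternatives. Cenpf, a large protein of the outer kinetochore and nuclear envelope, was at 2.06, 1.75 and 1.24 FPKM across controls 1 to 3 and 3.72, 3.49 and 4.04 FPKM across treated samples 1 to 3. It rose 2.23-fold, from 1.68 ± 0.415 to 3.75 ± 0.275 FPKM (SD, n = 3), with log2 fold change 0.84 ± 0.14 (SE), adjusted p = 0.00362. Cenpe, the kinetochore motor that brings chromosomes to the metaphase plate, was at 4.26, 4.82 and 2.74 FPKM across controls 1 to 3 and 5.91, 6.23 and 6.45 FPKM across treated samples 1 to 3, with no overlap (log2 fold change 0.57 ± 0.18 (SE), adjusted p = 0.0356). Cenpi, a subunit of the constitutive centromere network, was at 0.568, 0.905 and 0.841 FPKM across controls 1 to 3 and 1.46, 1.71 and 1.97 FPKM across treated samples 1 to 3. As its controls were all under 1 FPKM, it could enter the test only by being higher in treated cells, and its value (log2 fold change 0.62 ± 0.12 (SE), adjusted p = 0.00646) is a description. Cenpe was not called without control 1, treated 1, treated 2 or treated 3 (0.62, 0.60, 0.56 and 0.54, with adjusted p = 0.0675, 0.0916, 0.104 and 0.114), and Cenpi was not tested without a treated sample. Cenpe was also not called with no filter on low values (0.57, adjusted p = 0.0766), with GC and length trends removed (0.27, adjusted p = 0.143) and with GC, length and level trends removed (0.28, adjusted p = 0.137), nor Cenpi with quantile normalization (0.25, adjusted p = 0.152), with GC and length trends removed (0.34, adjusted p = 0.0611) and with GC, length and level trends removed (-0.0093, adjusted p = 0.957).

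No gene of spindle assembly was called: by limma 0 of 5 were, and 0 at an unadjusted p under 0.05, with a median of 0.14. With the same FPKM total all 5 were called higher (median 1.12) and with quantile normalization Tpx2 (0.37, adjusted p = 0.0211) and Hmmr (0.32, adjusted p = 0.0373) were. Tpx2, the activator of Aurora A on spindle microtubules, was at 28.7, 31.7 and 29.4 FPKM across controls 1 to 3 and 27.3, 27.0 and 27.3 FPKM across treated samples 1 to 3, so the treated samples were just below the controls (log2 fold change -0.13, 95% interval -0.37 to 0.10, adjusted p = 0.282). Nusap1, a microtubule bundler, was at 11.4, 15.7 and 6.48 FPKM across controls 1 to 3 and 11.1, 11.5 and 12.7 FPKM across treated samples 1 to 3, inside the control range (log2 fold change 0.14, 95% interval -0.56 to 0.84, adjusted p = 0.705). Hmmr, a spindle pole protein, was at 10.04, 10.8 and 9.33 FPKM across controls 1 to 3 and 12.1, 11.3 and 11.8 FPKM across treated samples 1 to 3, the treated samples being slightly above (log2 fold change 0.21, 95% interval -0.041 to 0.45, adjusted p = 0.131). Ckap2 and Prc1, which stabilize spindle and midzone microtubules, overlapped between groups at 4.37 to 7.95 FPKM and 5.89 to 9.46 FPKM. Prc1 was called lower without control 3 (-0.25, adjusted p = 0.0278).

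Condensin genes and chromosome proteins split within complexes. Of 7 genes 3 rose and 2 fell, with a median of 0.39, and with the same FPKM total 6 were called, all higher (median 1.38). Mki67 was at 4.28, 6.90 and 3.49 FPKM across controls 1 to 3 and 16.8, 14.8 and 17.1 FPKM across treated samples 1 to 3. The lowest treated sample was more than 2-fold above the highest control, which was control 2. It rose 3.32-fold, from 4.89 ± 1.79 to 16.2 ± 1.27 FPKM (SD, n = 3), with log2 fold change 1.59 ± 0.22 (SE), adjusted p = 0.00179. Ncapd2, a HEAT-repeat subunit of condensin I, was at 33.3, 32.2 and 37.9 FPKM across controls 1 to 3 and 19.1, 18.9 and 18.5 FPKM across treated samples 1 to 3, with no overlap. It fell 1.83-fold, from 34.5 ± 3.04 to 18.9 ± 0.328 FPKM (SD, n = 3), with log2 fold change -0.83 ± 0.11 (SE), adjusted p = 0.00143. Ncaph, the kleisin of the same complex, was at 10.8, 11.7 and 10.5 FPKM across controls 1 to 3 and 13.9, 14.8 and 15.6 FPKM across treated samples 1 to 3, also with no overlap but in the other direction. It rose from 11.0 ± 0.638 to 14.8 ± 0.874 FPKM (SD, n = 3), with log2 fold change 0.39 ± 0.10 (SE), adjusted p = 0.0192.

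Smc2 and Smc4 encode the paired ATPases shared by both condensins. Smc2 was at 5.98, 6.11 and 3.30 FPKM across controls 1 to 3 and 9.53, 9.33 and 10.6 FPKM across treated samples 1 to 3, with control 3 lowest. It rose from 5.13 ± 1.58 to 9.81 ± 0.673 FPKM (SD, n = 3), with log2 fold change 0.85 ± 0.21 (SE), adjusted p = 0.0157. Smc4 was at 28.8, 33.4 and 15.1 FPKM across controls 1 to 3 and 36.7, 39.3 and 43.9 FPKM across treated samples 1 to 3, again with control 3 lowest and every treated sample above every control. It was not called (log2 fold change 0.68, 95% interval -0.021 to 1.39, adjusted p = 0.0875), and was called higher without control 2 or control 3 (0.90 and 0.35, with adjusted p = 0.0314 and 0.0407). Smc4 was also called higher with quantile normalization and with GC, length and level trends removed. Ncapg, another condensin I subunit, ranged from 3.83 to 5.21 FPKM in controls and from 4.91 to 5.63 in treated samples (adjusted p = 0.279). Top2a, the topoisomerase that untangles sister chromatids, was at 88.8, 81.4 and 66.9 FPKM across controls 1 to 3 and 56.8, 56.0 and 61.1 FPKM across treated samples 1 to 3, with no overlap. It fell from 79.0 ± 11.2 to 58.0 ± 2.78 FPKM (SD, n = 3), with log2 fold change -0.43 ± 0.14 (SE), adjusted p = 0.0395. Top2a was not called without control 1, control 2, treated 1, treated 2 or treated 3 (-0.34, -0.41, -0.42, -0.41 and -0.47, with adjusted p = 0.123, 0.0585, 0.141, 0.147 and 0.104). It was also not called with no filter on low values (-0.43, adjusted p = 0.0626) and with weights per group (-0.43, adjusted p = 0.0507), its value was above 0 with quantile normalization (0.39, adjusted p = 0.0833) and with GC, length and level trends removed (0.092, adjusted p = 0.566), and it was called higher with the same FPKM total (0.56, adjusted p = 0.0359). Ncaph was not called without control 1, treated 1, treated 2 or treated 3 (0.38, 0.43, 0.39 and 0.35, with adjusted p = 0.0619, 0.0598, 0.0893 and 0.1), and Smc2 was not called without treated 1 or treated 3 (0.87 and 0.80, with adjusted p = 0.0543 and 0.065). Ncaph was also not called with GC and length trends removed (0.28, adjusted p = 0.0512) and with weights per group (0.39, adjusted p = 0.0573).

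Among the genes of cytokinesis and the chromosomal passenger complex, Birc5 fell and the other 3 were not called. The median over the 4 was -0.20, and with the same FPKM total 3 were called, all higher (median 0.76). Birc5, which encodes survivin, a passenger subunit and inhibitor of apoptosis, was at 23.0, 15.1 and 28.5 FPKM across controls 1 to 3 and 12.2, 12.4 and 12.6 FPKM across treated samples 1 to 3. The treated samples were nearly equal and below every control. It fell from 22.2 ± 6.69 to 12.4 ± 0.242 FPKM (SD, n = 3), with log2 fold change -0.75 ± 0.22 (SE), adjusted p = 0.0293. Racgap1, the GTPase-activating subunit of centralspindlin, was at 19.5, 19.6 and 14.6 FPKM across controls 1 to 3 and 13.3, 13.3 and 13.8 FPKM across treated samples 1 to 3, all treated samples being below, and it was not called (log2 fold change -0.37, 95% interval -0.71 to -0.038, adjusted p = 0.059). Ect2, the exchange factor that turns on RhoA at the division plane, ranged from 6.11 to 9.83 FPKM in controls and from 7.28 to 8.93 in treated samples. Anln, which encodes anillin of the contractile ring, ranged from 5.84 to 8.40 and from 8.79 to 9.27 FPKM, without overlap but not called (adjusted p = 0.159). Birc5 was not called without control 1, treated 1, treated 2 or treated 3 (-0.70, -0.74, -0.75 and -0.76, with adjusted p = 0.0923, 0.0947, 0.0886 and 0.087). It was also not called with no filter on low values (-0.75, adjusted p = 0.0652), with quantile normalization (-0.49, adjusted p = 0.0548) and with GC, length and level trends removed (-0.62, adjusted p = 0.0572), and its value was above 0 with the same FPKM total (0.20, adjusted p = 0.369). Racgap1 was called lower without control 3 (-0.51, adjusted p = 0.00213) and with GC and length trends removed.

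Genes whose products work together thus differed in the size of their change, and in condensin I called genes lay on both sides of 0 on the deposited scale. Aurka fell at -1.02 and its activator Tpx2 was at -0.13. Cdc20 was at -1.67, while its E2 enzyme Ube2c was at -0.31 and the checkpoint proteins that bind it, Bub1b and Mad2l1, were at -0.55 and 0.017. In condensin I, Ncapd2 was at -0.83, Ncapg at 0.18, Ncaph at 0.39, Smc4 at 0.68 and Smc2 at 0.85. With the same FPKM total all of these condensin I genes were above 0, from 0.13 for Ncapd2 to 1.88 for Smc2. Those differences between genes were not tested. Sorted by mean FPKM, the order of the levels also changed: Cdc20, Cks2, Top2a, Aurka and Ube2c led in controls, and Cks2, Top2a, Smc4, Ube2c and Cdc20 in treated cells. Aurka went from rank 4 to rank 9, Cenpa from 15 to 31 and Mki67 from 35 to 16. In controls the order within each neighbouring pair of those 5 differed between samples. In treated cells Top2a was above Smc4 and Smc4 above Ube2c in each sample, while the order of Cks2 and Top2a and that of Ube2c and Cdc20 differed between samples.

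Controls varied far more than treated samples. The median SD over the members was 0.26 on the log2(FPKM + 1) scale in controls and 0.067 in treated samples, and the control SD was the larger for 47 of the 50 genes. Over all genes tested the medians were 0.27 and 0.071. Control 3 was the lowest control for 31 members and the highest for 14, control 2 the lowest for 16 and the highest for 23, and control 1 the lowest for 3 and the highest for 13. The control nearest the treated mean was control 2 for 26 members, control 1 for 16 and control 3 for 8. Cdc20, Aurka, Bub3 and Birc5 were highest in control 3, and Smc4, Ccnb2, Ube2c and Cks2 were lowest there. Of the 12 members that rose, Mki67, Foxm1, Melk and Cenpf kept their calls without any single sample. Of the 13 that fell, Cdc20, Cenpa, Ncapd2, Cdc25b, Ccna2, Kif20a, Aurka and Bub3 did.

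**Figure D4:**
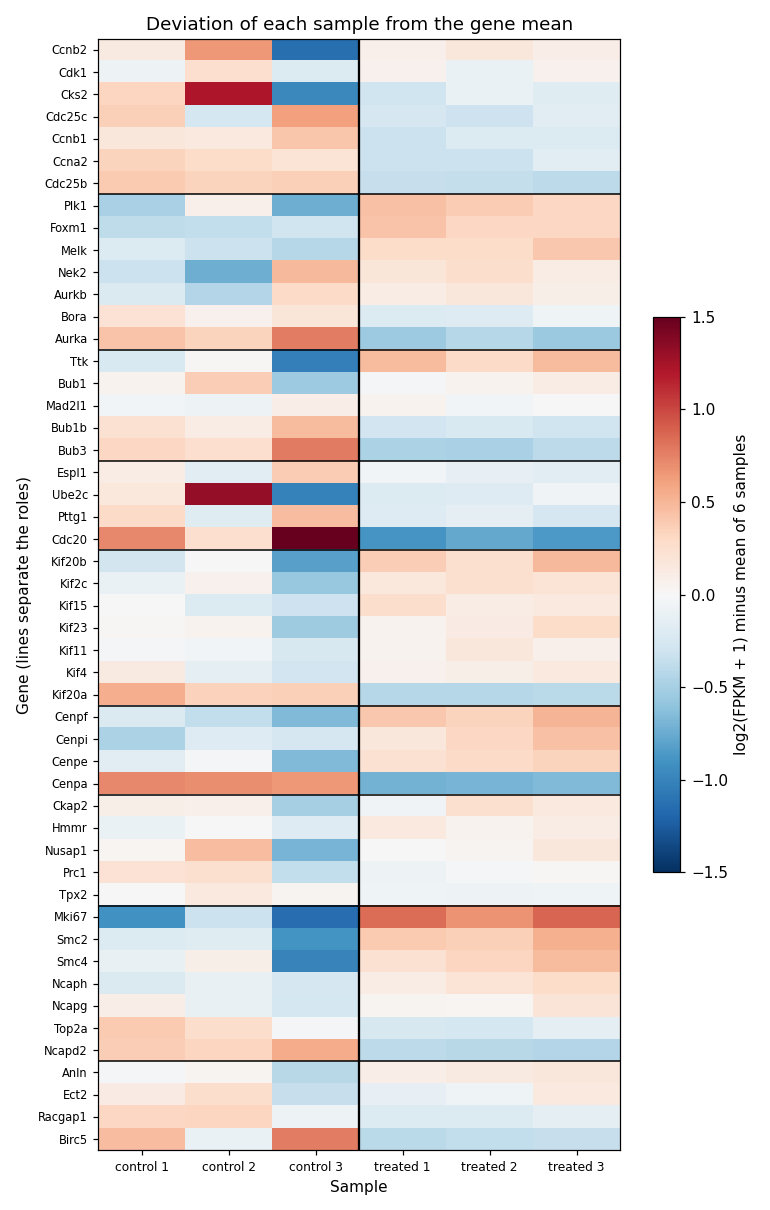
Deviation of log2(FPKM + 1) in each sample from the mean of the 6 samples for each gene, by role (red higher, blue lower; the colour scale ends at 1.5, and 1 value, Cdc20 in control 3 at 1.53, lies beyond it). The 3 treated columns look alike, and the 3 control columns differ from one another, with control 3 the lowest control for 31 genes.

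Other genes of mitosis, from lists of kinetochore, APC/C, entry control, passenger and cohesin, and spindle and cytokinesis genes, were also called in both directions. Of 113 tested of 118 listed, 38 rose and 23 fell, beside 27.9% and 28.3% of all genes, with a median of 0.15. With the same FPKM total 90 were called higher and 3 lower, beside 63.8% and 6.6% of all genes, at a median of 1.12 beside the 0.92 of all genes. 7 of the 113, Haspin among them, had every control under 1 FPKM and could enter the test only by being higher in treated cells, and all 7 are among the 38. Kinetochore and centromere genes had 17 of 36 higher and 8 lower (median 0.38), and here too the directions were mixed. Of these 36, 4 entered the test only through the treated samples. With quantile normalization 11 of the 36 were called higher and 7 lower (median 0.12), beside 27.2% and 24.5% of all genes. Mis12, which links kinetochores to centromeric chromatin, rose from 1.01 FPKM in controls to 9.998 FPKM in treated cells (log2 fold change 2.46 ± 0.13 (SE), adjusted p = 0.000164), and Cenpw, a histone-fold subunit of the centromere, fell from 4.89 FPKM in controls to 1.81 FPKM in treated cells (log2 fold change -1.07 ± 0.12 (SE), adjusted p = 0.000877). Exons of Mis12 overlap those of Derl2 on the opposite strand by 231 of 3003 bp, and exons of Ckap2l, Lig1 and Lin37 also overlap a gene of the opposite strand. APC/C genes had 3 of 16 higher and 5 lower (median -0.23, and 0.032 with quantile normalization), with its core subunit Cdc27 rising from 6.60 FPKM in controls to 14.5 FPKM in treated cells (log2 fold change 1.08 ± 0.25 (SE), adjusted p = 0.0124) and Anapc16 falling from 24.7 FPKM in controls to 5.04 FPKM in treated cells (log2 fold change -1.93 ± 0.39 (SE), adjusted p = 0.00711). Regulators of mitotic entry had 5 of 16 higher and 3 lower (median 0.16), with Ensa, an inhibitor of the phosphatase PP2A-B55, falling from 61.8 FPKM in controls to 20.8 FPKM in treated cells (log2 fold change -1.47 ± 0.25 (SE), adjusted p = 0.00375). Haspin, the histone H3 kinase, went from 0.283 FPKM in controls to 2.73 FPKM in treated cells (log2 fold change 1.54 ± 0.13 (SE), adjusted p = 0.000423), which is a description because of how it entered the test.

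Passenger and cohesin genes had 4 of 16 higher and 3 lower (median 0.34). Wapl, which releases cohesin, rose from 8.47 FPKM in controls to 18.0 FPKM in treated cells (log2 fold change 1.01 ± 0.10 (SE), adjusted p = 0.000669), and Cdca5, which encodes sororin, its antagonist, fell from 16.9 FPKM in controls to 9.85 FPKM in treated cells (log2 fold change -0.68 ± 0.21 (SE), adjusted p = 0.0328). Other spindle and cytokinesis genes had 9 of 29 higher and 4 lower (median 0.12), with Ckap2l, a paralog of Ckap2, rising from 4.67 FPKM in controls to 15.9 FPKM in treated cells (log2 fold change 1.73 ± 0.41 (SE), adjusted p = 0.0124) and Ncaph2, a condensin II subunit, falling from 137 FPKM in controls to 50.1 FPKM in treated cells (log2 fold change -1.29 ± 0.37 (SE), adjusted p = 0.0257). Exons of Ncaph2 overlap Sco2 and Tymp on the opposite strand, both listed at 0 FPKM in all samples. Cdc27 and Ckap2l were not called without treated 3 (adjusted p = 0.0509 for each). Cdca5 was not called without control 1, treated 1, treated 2 or treated 3 (-0.71, -0.65, -0.70 and -0.69, with adjusted p = 0.0802, 0.107, 0.0909 and 0.0937), and Ncaph2 was not called without control 1, treated 1, treated 2 or treated 3 (-1.33, -1.30, -1.29 and -1.29, with adjusted p = 0.0707, 0.0779, 0.0772 and 0.0809). Cdca5 was also not called with no filter on low values (-0.68, adjusted p = 0.0707), with GC and length trends removed (-0.47, adjusted p = 0.115), with GC, length and level trends removed (-0.45, adjusted p = 0.136) and with the same FPKM total (0.26, adjusted p = 0.21), nor Ncaph2 with no filter on low values (-1.29, adjusted p = 0.0644), with quantile normalization (-0.42, adjusted p = 0.257), with GC, length and level trends removed (-0.59, adjusted p = 0.163) and with the same FPKM total (-0.31, adjusted p = 0.414). Cenpw (-0.39, adjusted p = 0.0573) and Ensa (-0.51, adjusted p = 0.0662) were not called with the same FPKM total.

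The genes of the factors that act on CCAAT and CHR promoters, the MuvB, DREAM and NF-Y subunits with B-MYB, were called in 11 of 13 cases, 7 higher and 4 lower (median 0.29), beside 56.1% of all genes called, 27.9% higher and 28.3% lower. Lin9, 1 of the 7, had every control under 1 FPKM and entered the test only through the treated samples. With the same FPKM total 10 were called, all higher (median 1.25), beside 63.8% of all genes higher and 6.6% lower. With quantile normalization 5 of the 13 were called higher and 3 lower (median 0.19), beside 27.2% and 24.5% of all genes. Nfya, which encodes the NF-Y subunit that contacts CCAAT, rose from 4.38 FPKM in controls to 14.1 FPKM in treated cells (log2 fold change 1.53 ± 0.21 (SE), adjusted p = 0.00169), and Lin37, a MuvB subunit, fell from 27.8 FPKM in controls to 11.0 FPKM in treated cells (log2 fold change -1.23 ± 0.21 (SE), adjusted p = 0.00387). For comparison, genes of DNA replication and the G1/S transition, earlier in the cycle, had 10 of 46 higher and 7 lower (median 0.12), and with the same FPKM total 37 were called, all higher (median 1.09), beside the same 63.8% and 6.6%. Of the 10, 4 entered the test only through the treated samples. Gins3, a helicase subunit, rose from 1.29 FPKM in controls to 3.78 FPKM in treated cells (log2 fold change 1.06 ± 0.11 (SE), adjusted p = 0.000654), and Lig1, the ligase of lagging-strand synthesis, fell from 35.1 FPKM in controls to 14.1 FPKM in treated cells (log2 fold change -1.20 ± 0.24 (SE), adjusted p = 0.0074). Lin37 (-0.30, adjusted p = 0.183) and Lig1 (-0.25, adjusted p = 0.292) were not called with the same FPKM total. The 50 mitotic genes had 12 higher and 13 lower at a median of 0.11.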

How the data were processed

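The authors deposited 1 FPKM value per gene and sample, per the file headers. Libraries were made from 3 µg of poly-T selected RNA and read as 150 bp pairs, per the labels. The aligner is not given in the sources used here, nor are the counter, the genome build and the strand setting. Members were matched by identifier in GENCODE M21, and Lin54 of the DREAM list had no match. Reads were worked back from the steps of low values (92.3% to 93.4% of values under 200 reads were whole within 0.02). Genes with 3 or more of the 6 samples at 1 FPKM entered limma 3.58.1 (R 4.3.3, trended prior) on log2(FPKM + 1), 11118 in all, with group as the only term, Benjamini-Hochberg adjustment over all of them and calls at an adjusted p under 0.05. The procedure was also run on simulated data in which both groups had the same spread and 200 genes changed. In these data the controls spread more than the treated samples and 56.1% of genes were called. That run therefore does not bear on the calls made here. Alternatives changed the pseudocount, filter, scaling, weights and replicate block, removed GC, length and level trends, or left out each sample in turn. Every member was named, with its value in each sample where it was called or averaged 10 FPKM or more in a group, and so were the called genes with the largest rise and fall of each other list. Members and lists were chosen with earlier results of these data known. Intervals are 95% intervals by limma for the difference between the group means. They rest on the spread of samples within groups, taken as 1 variance per gene although the controls spread more.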

Additional observations from a re-analysis of the deposited data

How the results depend on the processing

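Each of 15 alternatives gave the counts, the median and the value of every named gene anew. The members called higher (12) became 7 with no filter, 6 with a minimum of 5 FPKM (38 members and 6687 genes tested), 38 with the same FPKM total in every sample, 6 with GC and length trends removed and 7 with the replicate block. They became 7 to 15 with 1 control left out and 4 to 5 with 1 treated sample left out. The members called lower (13) became 1 with the same total, 8 with quantile normalization, 10 to 16 with 1 control left out and 8 with any 1 treated sample left out. The median of 0.11 (-0.015 over all genes) became 1.09 with the same total (0.92), 0.22 with quantile normalization (0.029), -0.043 with the minimum of 5 FPKM (-0.24), -0.081 with GC and length trends removed (-0.0050), 0.0024 with the level trend removed too (-0.013), and -0.076 to 0.16 with 1 sample left out, lowest without control 3 (-0.015). Over all genes, 3099 higher and 3141 lower became 1385 higher with the minimum of 5 FPKM, and 7088 higher and 734 lower with the same total. With 1 control left out they became 2564 to 3637 higher and 2251 to 3585 lower. With 1 treated sample left out they became 1542 to 1597 higher and 2011 to 2136 lower. Without a treated sample 49 members were tested, and the cause of the other differences was not tested. The replicate numbers are shared labels only: deviations of same-numbered samples correlated at -0.054, -0.11 and -0.14, and the block left 7 members higher and 9 lower, and 2618 and 2669 of all genes.

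Log2 fold changes changed sign in these cases, and the cause was not tested unless the setting itself shows it. The same FPKM total raises values by construction, with Ccna2 0.42, Ccnb1 0.48, Cks2 0.61, Cdc25b 0.25, Cdc25c 0.32, Bora 0.46, Bub1b 0.43, Bub3 0.065, Ube2c 0.68, Pttg1 0.59, Espl1 0.72, Kif20a 0.11, Tpx2 0.85, Prc1 0.90, Ncapd2 0.13, Top2a 0.56, Ect2 0.93, Racgap1 0.59, Birc5 0.20 and Cdca5 0.26. Quantile normalization gave Cks2 0.42, Bub1b 0.061, Mad2l1 -0.18, Ube2c 0.32, Kif15 -0.015, Kif4 -0.0059, Tpx2 0.37 and Top2a 0.39. GC and length trends removed gave Cdk1 -0.13, Cks2 0.035, Bub1 -0.16, Mad2l1 -0.34, Kif11 -0.093, Nusap1 -0.069, Hmmr -0.058 and Ncapg -0.32. GC, length and level trends removed gave Cks2 0.66, Mad2l1 -0.37, Ube2c 0.32, Kif11 -0.030, Kif15 -0.24, Kif23 -0.038, Kif4 -0.11, Cenpi -0.0093, Tpx2 0.15, Ncapg -0.26 and Top2a 0.092. Leaving out 1 sample gave ranges of Ccnb2 -0.28 to 0.61, Cdk1 -0.078 to 0.15, Cks2 -0.96 to 0.13, Bub1 -0.17 to 0.29, Mad2l1 -0.017 to 0.069, Ube2c -0.89 to 0.27, Nusap1 -0.18 to 0.40, Prc1 -0.25 to 0.047 and Ect2 -0.21 to 0.097. No named gene changed sign under the pseudocount of 0.1 FPKM, no filter, the minimum of 5 FPKM, weights per group or the replicate block. Of the genes that rose, 4 stayed called under every alternative in which they were tested, and of those that fell only Cenpa did.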
